A study of Mus musculus with 8 samples.

Results

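The genes described are 38 splicing regulators, taken by symbol from a count table of 15693 genes of mouse brain cortex. All 38 were found, and each passed the filter on low counts, the lowest count in any library being 831. They fall into 4 classes. The first holds 9 heterogeneous nuclear ribonucleoprotein (hnRNP) genes, and the next holds 11 genes of the serine/arginine-rich (SR) and Tra2 proteins. A further 14 genes encode neuronal and tissue-restricted regulators, and 4 encode CLK kinases or Luc7-like proteins.

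RNA came from 4 wild-type (WT) and 4 TDP-43Q331K mice, all 4 months old and all in batch 1, and each library is labelled as bulk cortex. The TDP-43Q331K line is named for a mutation of TDP-43, the RNA-binding product of the gene Tardbp, and the design text presents it as a model of amyotrophic lateral sclerosis (ALS). No label states if a transgene or an edited gene is present, nor which promoter drives it. The WT samples are labelled C57BL/6J, whereas the design text names c57bl6/n as the control, and no label gives the background strain of the mutant mice. An effect of background strain and an effect of the mutation therefore cannot be told apart. No animal is identified beyond a replicate number and a library name, so p-values measure the spread between these libraries. Sex is not labelled, and levels of Xist, given below, place both sexes in each group.

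Splicing regulators act by binding short sequences in pre-mRNA and by helping or hindering the use of nearby splice sites. SR and Tra2 proteins mostly bind exonic enhancers and recruit the splicing machinery, whereas many hnRNP proteins oppose them. CLK kinases phosphorylate SR proteins and so set their activity, and Luc7-like proteins are relatives of a yeast component of the U1 particle. RBFOX, PTBP, NOVA, CELF, MBNL and ELAVL proteins give neurons and muscle their own splicing patterns. TDP-43 is itself an hnRNP-type protein that binds UG-rich RNA, and many of these genes hold exons that lead their own transcripts to decay.

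Promoter sequences are shown for Hnrnpm and Tra2a, the members with the smallest p-values in the comparison of genotypes. Each runs from 250 bases before to 50 bases after the RefSeq transcription start, in build GRCm38.p6, and is written 5′ to 3′ on the gene's strand. Capitals mark matches on either strand to GGGCGG (a GC box, which reads CCGCCC from the other strand), CCAAT or TATAAA. The Hnrnpm promoter, chr17:33685409-33685708 on the minus strand, has a GC content of 58.0% and holds 1 TATAAA, far upstream of the start.
Hnrnpm: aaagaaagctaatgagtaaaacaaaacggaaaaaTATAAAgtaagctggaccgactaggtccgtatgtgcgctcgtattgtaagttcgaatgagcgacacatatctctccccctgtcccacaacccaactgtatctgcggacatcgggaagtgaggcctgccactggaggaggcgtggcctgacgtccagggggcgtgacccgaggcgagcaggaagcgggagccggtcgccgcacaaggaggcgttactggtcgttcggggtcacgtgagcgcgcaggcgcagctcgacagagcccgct
The Tra2a promoter, chr6:49264003-49264302 on the minus strand, has a GC content of 60.0% and holds 2 GC boxes and 1 CCAAT.
Tra2a: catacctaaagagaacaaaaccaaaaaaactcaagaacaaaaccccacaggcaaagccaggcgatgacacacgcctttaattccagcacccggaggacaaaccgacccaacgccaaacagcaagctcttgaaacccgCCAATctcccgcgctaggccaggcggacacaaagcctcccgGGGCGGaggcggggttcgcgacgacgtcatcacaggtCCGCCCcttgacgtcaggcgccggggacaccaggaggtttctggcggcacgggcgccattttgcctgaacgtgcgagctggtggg
These promoters share none of the 3 motifs, and a match is a description of letters only.

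RefSeq promoters were found for 36 of the 38 genes, 57 starts in all, and not for Rbfox2 or Clk1. A GC box lay in 27 of the 36 genes, in 39 of their 57 promoters and in 35.7% of all 32851 promoters searched. CCAAT lay in 18 genes, in 26 of the 57 promoters and in 37.4% of all promoters. TATAAA lay in 6 genes (Celf2, Elavl3, Hnrnpm, Mbnl1, Srsf2 and Srsf3), in 6 of the 57 promoters and in 13.6% of all promoters. A gene with several starts has more chances of a match than a lone promoter, so these shares are side by side and not a test. The median GC content was 61.0% over the members' promoters and 52.7% over all promoters.

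Hnrnpm was the only one of the 38 genes past the test across all genes, and it was higher in TDP-43Q331K cortex. The test was edgeR's quasi-likelihood test with Benjamini-Hochberg adjustment over 15693 genes at a threshold of 0.05, and it called 148 genes, 0.943% of all, of which 54 (0.344%) were higher and 94 (0.599%) lower. Levels are given in CPM, read counts relative to a library's total after scaling by TMM, and every fold change is TDP-43Q331K relative to WT. In 4 of the 38 genes, Hnrnpm, Tra2a, Srsf2 and Srsf1, every mutant library lay above every WT library, and in 0 every mutant library lay below. Such separation was found in 9.68% of all genes, in 4.49% with the mutant above and in 5.19% with it below. Unadjusted p-values under 0.05 were found for 5 members that were higher and 3 that were lower, against 7.91% and 7.77% of all genes.

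Across the 38 genes, 26 log2 fold changes were positive and 12 negative, with a median of 0.03. Over all genes tested, 51.8% were positive and the median was 0.00. The SR and Tra2 class had 11 of 11 positive values and a median of 0.07. The hnRNP class had 7 of 9 positive and a median of 0.04, the regulators 6 of 14 and a median of -0.01, and the kinase or Luc7-like class 2 of 4 and a median of -0.02. The smallest of the SR values turned negative under other settings, Srsf11 with upper quartile scaling (-0.01) and Srsf4 with a covariate made from thalamic and olfactory bulb markers (-0.02).

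**Figure D1:**
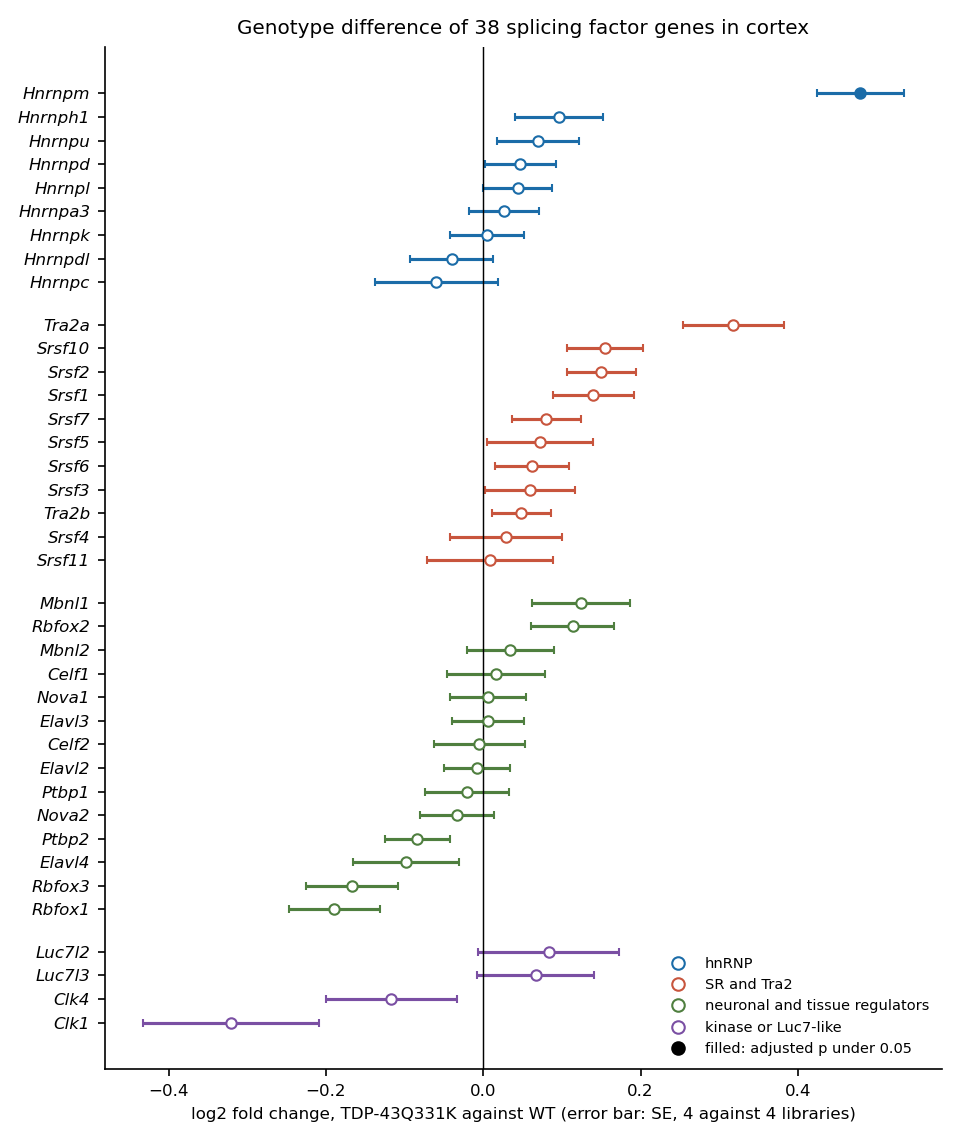
Log2 fold change of each of the 38 genes in TDP-43Q331K relative to WT cortex (points) with its standard error (bars), by class. Hnrnpm, at 0.48, is the only gene past the all-gene edgeR test, and Clk1 and Tra2a lie farthest from 0 among the others, at -0.32 and 0.32.

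Hnrnpm (ENSMUSG00000059208) encodes hnRNP M, which binds GU-rich RNA and regulates exon inclusion. Its level was 102, 115, 113 and 111 CPM in WT replicates 1 to 4, and 164, 143, 158 and 150 CPM in TDP-43Q331K replicates 1 to 4. The lowest mutant library lay well above the highest WT library. The WT mean was 110 ± 5.83 CPM and the mutant mean 154 ± 8.97 CPM (SD, n = 4 each), a 1.39-fold difference. The log2 fold change was 0.48 with a standard error of 0.06 (edgeR adjusted p = 0.00509), and Hnrnpm ranked 13 by p among all genes. Whichever of the 8 libraries was left out, Hnrnpm stayed past the test, at log2 fold changes from 0.44 to 0.51.

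In the annotation, exons of Hnrnpm overlap those of March2 (a ubiquitin ligase gene) on the same strand, and 1149 bases are identical between their transcripts. March2 lay between 57.3 and 66.9 CPM in the 8 libraries and had a log2 fold change of -0.04 (edgeR adjusted p = 0.751). The labels do not say how reads from the shared bases were counted.

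Markers of thalamus and olfactory bulb, tissues next to the cortex, had positive log2 fold changes in 11 of 11 cases. The pattern over libraries differed between markers. Eomes, Tbx21, Doc2g, Th and Cdhr1 had their lowest levels in WT replicates 1 and 2. Every other library of either genotype was higher. In that pair Cdhr1 measured 10.5 and 13.9 CPM. The remaining WT libraries had 74.3 and 53.1 CPM, and the mutant group 27.1 to 88.9 CPM. Tcf7l2, Prkcd and Tnnt1 instead peaked in mutant replicate 4. Slc17a6 did separate by genotype, at 25.7 to 31.7 CPM in WT and 33.2 to 50.0 CPM in the mutant. Its log2 fold change was 0.45 (edgeR adjusted p = 0.123). None of the 11 passed the all-gene edgeR test, and none was at 0 in every library. Without mutant replicate 4, in which the thalamic marker Prkcd was at 67.7 CPM against at most 16.4 CPM elsewhere, 8 of the 11 were positive, and Lef1, Ramp3 and Tnnt1 were not. Their summed level ran from 73.4 to 181 CPM in WT and from 148 to 227 CPM in TDP-43Q331K. A covariate made from all 11 markers mixes these patterns. With it, the log2 fold change of Hnrnpm was 0.47 and its edgeR adjusted p was 0.0665, and 12 genes in all were called. Choroid plexus markers had 6 of 6 positive values and a median of 1.16, with summed levels from 16.5 to 404 CPM in WT and from 47.2 to 580 CPM in the mutant. Of the WT libraries, replicate 1 was at 404 CPM and the others at 16.5 to 17.9 CPM. Without WT replicate 1 the choroid plexus markers had 6 of 6 positive values and a median of 2.37. Without mutant replicate 4 they had 5 of 6 and a median of 0.30, and their part in the Hnrnpm difference was not tested.

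Markers of cortical excitatory neurons had 0 of 7 positive values, with a summed level of 4792 to 5464 CPM in WT and 4484 to 4661 CPM in the mutant. None of those 7 passed the test with all libraries, and 2 did without WT replicate 4. Inhibitory neuron markers had 3 of 3 positive values and a median of 0.19. Markers of all neurons had 1 of 5 and a median of -0.03, with sums that overlapped, from 6467 to 6940 CPM in WT and from 6198 to 6941 CPM in the mutant. Microglial markers had 0 of 5 positive values and a median of -0.12. P2ry12 had a log2 fold change of -0.26, with every mutant library below every WT library (edgeR adjusted p = 0.0906). Cx3cr1 stood at -0.13, Tmem119 at -0.12, Csf1r at -0.00029 and C1qa at -0.0083. The sums of the microglial markers overlapped, from 219 to 248 CPM in WT and from 204 to 240 CPM in the mutant. Without WT replicate 2, 2 of these 5 markers had positive values. Oligodendrocyte markers had 5 of 5 and a median of 0.11, with overlapping sums of 3413 to 4024 CPM in WT and 3496 to 4871 CPM in the mutant. Positive values were 3 of 5 for astrocytes, 1 of 2 for oligodendrocyte precursors and 2 of 3 for endothelium. Striatal markers had 6 of 7, but 1 of 7 without WT replicate 3. Their sums were 316 to 905 CPM in WT and 408 to 874 CPM in the mutant. None of these markers, nor of inhibitory neurons, all neurons or microglia, passed the test with all libraries. In bulk tissue, fewer cells of a type and less RNA per cell cannot be told apart.

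The other 8 hnRNP genes did not pass the test, and their log2 fold changes lay between -0.06 and 0.10. Hnrnph1, whose protein binds runs of G, was at 224, 256, 248 and 234 CPM in WT and at 268, 253, 267 and 241 CPM in the mutant. Its groups overlapped, and the log2 fold change was 0.10 (SE 0.06, edgeR adjusted p = 0.436). Hnrnpu encodes the nuclear scaffold protein hnRNP U. Its level was 535, 547, 553 and 556 CPM in WT and 579, 532, 622 and 566 CPM in the mutant. The mutant libraries spread more widely than the WT libraries and enclosed them (log2 fold change 0.07, edgeR adjusted p = 0.556).

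Hnrnpd encodes AUF1, which binds AU-rich elements of mRNA. It was at 163, 157, 158 and 170 CPM in WT and at 173, 159, 170 and 168 CPM in the mutant, with a log2 fold change of 0.05. Hnrnpl, whose protein binds CA repeats, was at 230, 240, 250 and 239 CPM in WT and at 251, 238, 253 and 248 CPM in the mutant, a log2 fold change of 0.04. Hnrnpc, whose protein binds runs of U, was at 181, 210, 204 and 186 CPM in WT and at 182, 217, 177 and 173 CPM in the mutant. The highest library of all was a mutant one, and the log2 fold change of Hnrnpc was -0.06. The edgeR adjusted p was 0.654 for Hnrnpd, 0.671 for Hnrnpl and 0.756 for Hnrnpc.

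Hnrnpdl, the paralog of Hnrnpd, Hnrnpa3, of the hnRNP A/B family, and Hnrnpk, whose protein binds C-rich RNA, had log2 fold changes of -0.04, 0.03 and 0.00. Hnrnpk is covered over 1378 bases by the counted processed pseudogene Gm7964 at 99.2% identity. In WT libraries Gm7964 was at 10.2 CPM and Hnrnpk at 336 CPM, and reads could be shared between them.

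**Figure D2:**
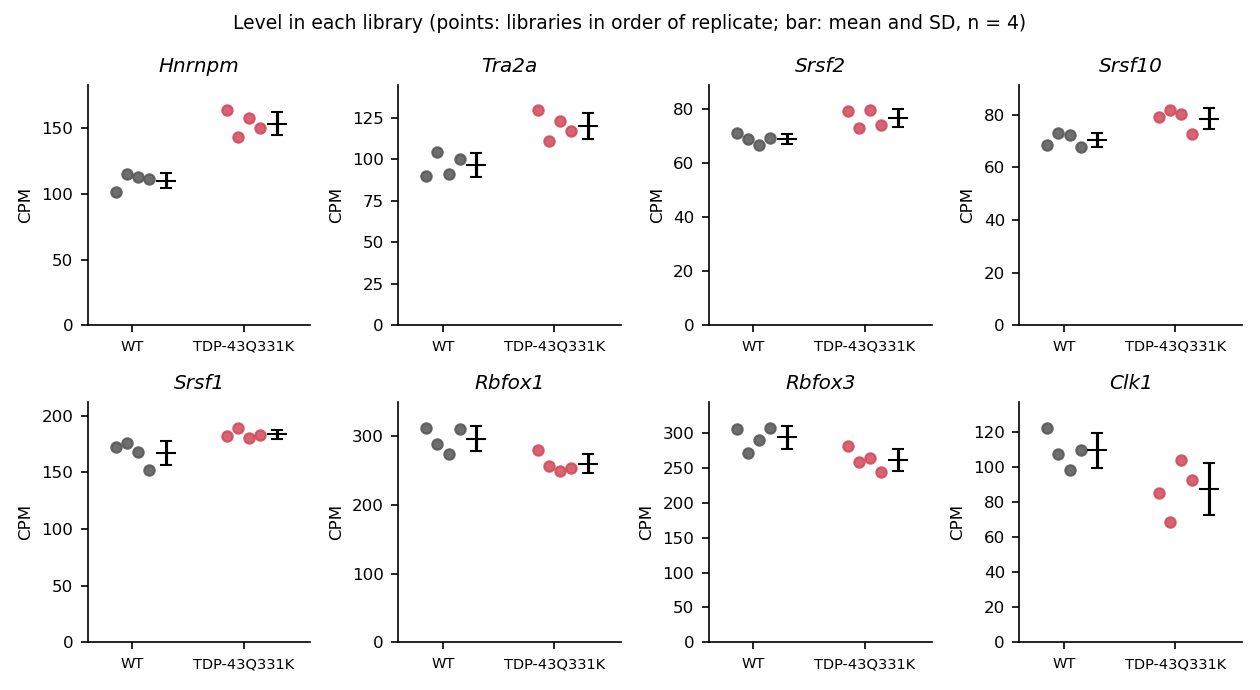
CPM in each library (points, in order of replicate) for 8 genes, with the mean and SD of each group beside them (n = 4). The WT and mutant points are apart for Hnrnpm, Tra2a, Srsf2 and Srsf1 and overlap for Srsf10, Rbfox1, Rbfox3 and Clk1.

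Tra2a (ENSMUSG00000029817) lay at the edge of the threshold and was the largest positive value among the SR and Tra2 genes. Its protein binds GAA-rich exonic enhancers. The level was 89.6, 104, 90.8 and 100 CPM in WT and 129, 111, 123 and 117 CPM in the mutant. Every mutant library lay above every WT library, the means being 96.3 ± 7.24 and 120 ± 7.97 CPM (SD, n = 4 each). The log2 fold change was 0.32 (SE 0.06), with an edgeR adjusted p of 0.0508. DESeq2 gave an adjusted p of 0.00106 for Tra2a, in a fit that called 701 of 15692 genes (4.47%). By DESeq2, 2 of the 38 genes were higher (Hnrnpm and Tra2a), against 1.84% of all genes, and 1 was lower (Rbfox1), against 2.63%.

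Srsf2 encodes SC35, an SR protein of the nuclear speckles. It was at 71.2, 69.1, 66.6 and 69.2 CPM in WT and at 79.3, 73.2, 79.6 and 74.3 CPM in the mutant. The groups did not overlap, and the log2 fold change was 0.15 (SE 0.04, edgeR adjusted p = 0.136). Exons of Srsf2 overlap those of Mettl23 and Mfsd11 on the opposite strand, which had log2 fold changes of -0.09 and 0.10.

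Srsf10 encodes an SR protein that represses splicing when it is dephosphorylated. It was at 68.4, 73.3, 72.5 and 67.8 CPM in WT and at 79.3, 81.8, 80.3 and 72.6 CPM in the mutant. The lowest mutant library fell among the WT libraries, and the log2 fold change was 0.15 (SE 0.05, edgeR adjusted p = 0.162).

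Srsf1 encodes SF2/ASF, a founding member of the SR family. It was at 172, 175, 168 and 152 CPM in WT and at 182, 189, 181 and 182 CPM in the mutant, with no overlap. The log2 fold change was 0.14 (SE 0.05, edgeR adjusted p = 0.217). The WT libraries spread over a wider range than the mutant libraries, and WT replicate 4 was the lowest.

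Srsf7, a shuttling SR protein with a zinc knuckle, was at 103, 102, 98.1 and 93.2 CPM in WT and at 103, 107, 107 and 102 CPM in the mutant. Srsf6 was at 115, 126, 120 and 113 CPM in WT and at 124, 125, 128 and 117 CPM in the mutant. In both genes the groups overlapped, with log2 fold changes of 0.08 and 0.06 (edgeR adjusted p = 0.412 and 0.561).

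The other members of the class had larger p-values. Srsf5 had a log2 fold change of 0.07, Srsf3 of 0.06, Tra2b of 0.05, Srsf4 of 0.03 and Srsf11 of 0.01. Tra2b, the paralog of Tra2a, was at 62.7 ± 1.06 CPM in WT and 64.9 ± 1.47 CPM in the mutant (SD, n = 4 each). Srsf4 was the least abundant SR gene, at 16.8 ± 1.54 CPM in WT and 17.2 ± 0.414 CPM in the mutant (SD, n = 4 each).

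Among the neuronal and tissue regulators 0 of 14 genes passed the test, and in all 14 the groups overlapped. At an unadjusted p under 0.05 edgeR gave 2 lower genes, Rbfox1 and Rbfox3, and DESeq2 called 1, Rbfox1. RBFOX proteins bind GCATG in pre-mRNA, where T stands for U. Rbfox1 and Rbfox3 are largely neuronal, and Rbfox3 encodes NeuN, the antigen used to stain neuronal nuclei, whereas Rbfox2 is expressed more widely.

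Rbfox1 was at 313, 288, 275 and 311 CPM in WT and at 281, 258, 250 and 253 CPM in the mutant. Only the highest mutant library reached into the WT range. The log2 fold change was -0.19 (SE 0.06), with adjusted p-values of 0.153 in edgeR and 0.0389 in DESeq2. Rbfox3 was at 305, 271, 290 and 308 CPM in WT and at 281, 258, 264 and 243 CPM in the mutant, where again 1 mutant library lay within the WT range. Its log2 fold change was -0.17 (SE 0.06, edgeR adjusted p = 0.199).

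Rbfox2 was at 330.9, 341, 336 and 340 CPM in WT and at 389, 358, 378 and 335 CPM in the mutant. Of the mutant libraries 3 lay above the narrow WT range and the fourth within it. The log2 fold change was 0.11 (SE 0.05, edgeR adjusted p = 0.329).

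Ptbp2 encodes the neuronal PTB protein, which takes the place of Ptbp1 as neurons form. It was at 128, 132, 123 and 127 CPM in WT and at 120, 116, 121 and 124 CPM in the mutant, a log2 fold change of -0.08. Ptbp1 was at 19.3 ± 0.847 CPM in WT and at 19.0 ± 0.369 CPM in the mutant (SD, n = 4 each), with a log2 fold change of -0.02. The edgeR adjusted p was 0.354 for Ptbp2 and 0.893 for Ptbp1.

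Mbnl1 encodes muscleblind, the protein sequestered by CUG repeats in myotonic dystrophy. It was at 109, 104, 88.0 and 101 CPM in WT and at 114, 106, 108 and 110 CPM in the mutant, a log2 fold change of 0.12 (edgeR adjusted p = 0.37). Elavl4 encodes the neuronal RNA-stabilising protein HuD. It was at 115, 118, 115 and 101 CPM in WT and at 118, 103, 102 and 96.9 CPM in the mutant, a log2 fold change of -0.10 (edgeR adjusted p = 0.521). In both genes the libraries of the groups interleaved.

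The other regulators had log2 fold changes between -0.03 and 0.03. These were Nova1 (0.01) and Nova2 (-0.03), whose proteins were found as autoantigens in a paraneoplastic disorder, and Celf1 (0.02) and Celf2 (0.00), which encode CUG-binding proteins. Mbnl2 stood at 0.03, and Elavl2 and Elavl3, which encode neuronal Hu proteins, at -0.01 and 0.01. Celf2 was among the most counted members, at 548 ± 22.3 CPM in WT and 546 ± 38.9 CPM in the mutant (SD, n = 4 each).

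None of the 4 kinase or Luc7-like genes passed the test. Clk1, a kinase of SR proteins whose own pre-mRNA retains introns, was at 122, 107, 98.2 and 110 CPM in WT and at 84.9, 68.6, 104 and 92.9 CPM in the mutant. The groups overlapped through 1 mutant library. The log2 fold change was -0.32 (SE 0.11, edgeR adjusted p = 0.2), the widest standard error among the 38 genes.

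Clk4, its close relative, was at 68.9, 69.7, 64.0 and 64.7 CPM in WT and at 62.3, 50.3, 67.8 and 66.1 CPM in the mutant, a log2 fold change of -0.12. Luc7l2 was at 231, 269, 262 and 254 CPM in WT and at 281, 217, 292 and 285 CPM in the mutant, a log2 fold change of 0.08. Luc7l3 was at 176, 211, 207 and 175 CPM in WT and at 210, 186, 213 and 197 CPM in the mutant, a log2 fold change of 0.07. The edgeR adjusted p was 0.539 for Clk4, 0.698 for Luc7l2 and 0.708 for Luc7l3.

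TDP-43Q331K replicate 2 was the lowest mutant library in all 4 of these genes. Over all 38 genes it was the lowest of its group in 21, with a median deviation of -0.05 on the log2 scale from the group mean. Without it, the log2 fold change of Clk1 was -0.22, that of Luc7l2 was 0.17 and the median of the class was 0.04, and 0 of the 4 genes were called. Hnrnpm remained past the test without this library. WT replicate 3 was the lowest WT library in 9 of the 14 regulators.

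**Figure D3:**
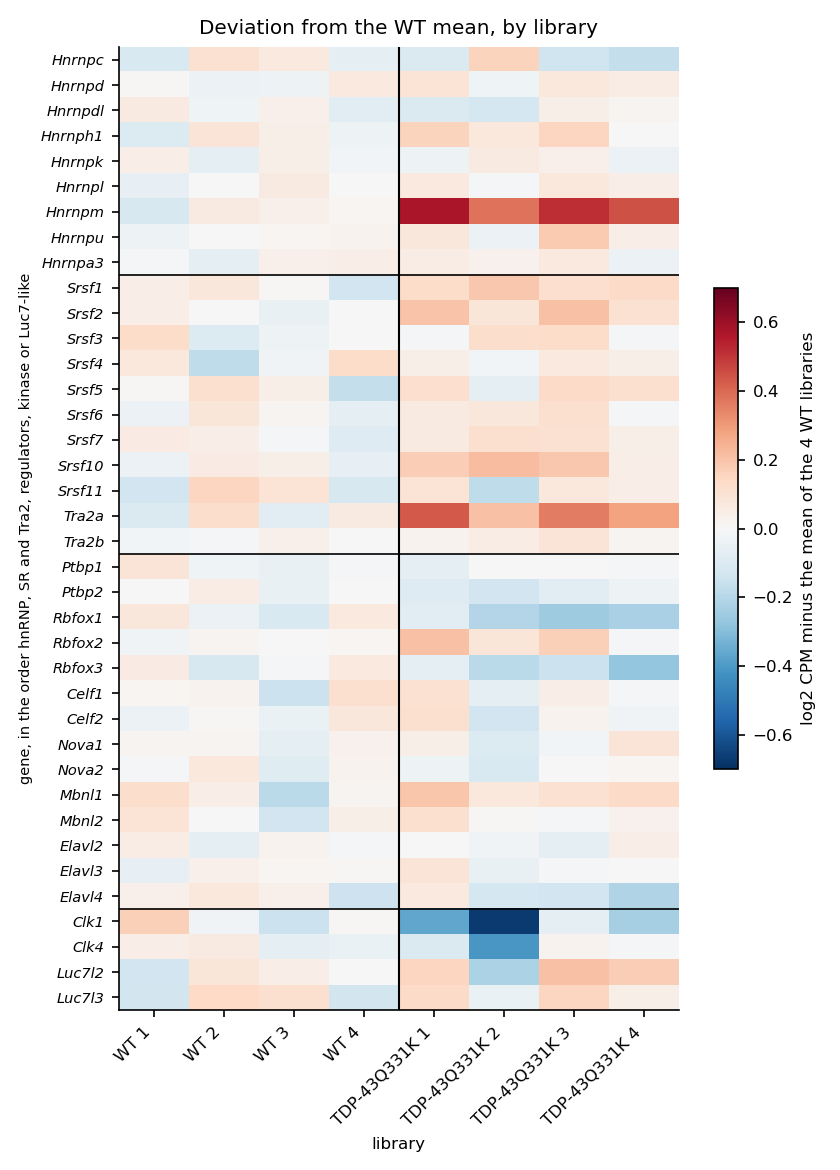
Log2 CPM of each of the 38 genes (rows, by class) minus its mean over the 4 WT libraries, in each of the 8 libraries (columns), as colour. The Hnrnpm and Tra2a rows are high in all 4 mutant libraries, and TDP-43Q331K replicate 2 is the lowest mutant library in all 4 kinase or Luc7-like genes.

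The median coefficient of variation over the 4 WT libraries was 4.63% for the 38 genes, 5.36% for the 8406 genes within their range of WT levels and 7.30% for all genes. Over the mutant libraries it was 5.19% for the 38 genes. The largest within-group value was that of Clk1 in the mutant, at 17.0%, beside 9.15% in WT. Clk1 and Luc7l2, at 12.9% in the mutant, are also among the genes in which mutant replicate 2 stands lowest.

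Ratios of paralogs within a library do not depend on the scaling between libraries. For 16 pairs the log2 ratio was compared between groups by a two-sided exact permutation test, which with 4 against 4 libraries cannot give a p below 0.0286. In 4 pairs the groups did not overlap and p was 0.0286, which became 0.114 after Benjamini-Hochberg adjustment over the 16 pairs, so no pair passed. Pairs that hold a common gene are not independent of each other.

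Rbfox1 against Rbfox2 had the largest difference of any pair. The log2 ratio was -0.08, -0.24, -0.29 and -0.13 in WT and -0.47, -0.48, -0.60 and -0.40 in the mutant. Rbfox1 was thus nearly level with Rbfox2 in counts in WT, and every mutant library lay below every WT library. The difference was -0.30 between means of -0.19 ± 0.10 and -0.49 ± 0.08 (SD, n = 4 each, exact p = 0.0286).

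Rbfox2 against Rbfox3 was at 0.20 ± 0.10 in WT and 0.48 ± 0.03 in the mutant (SD, n = 4 each), a difference of 0.28. Rbfox1 and Rbfox3, the neuronal pair, had a log2 ratio near 0 in both groups, 0.02 ± 0.07 in WT and -0.01 ± 0.06 in the mutant (SD, n = 4 each, exact p = 0.657). Beside these ratios stand the neuronal marker lists given above, lower in sum for cortical excitatory neurons, with positive values for inhibitory neurons and overlapping for all neurons, and their part in the ratios was not tested.

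Tra2a against Tra2b was at 0.62 ± 0.12 in WT and 0.89 ± 0.10 in the mutant (SD, n = 4 each), a difference of 0.27. Mbnl1 against Mbnl2 was at -1.29 ± 0.05 in WT and -1.20 ± 0.02 in the mutant (SD, n = 4 each), a difference of 0.09 with no overlap. Clk1 against Clk4 differed by -0.21 with overlap (exact p = 0.0571). The remaining pairs had differences between -0.03 and 0.10 with exact p-values of 0.171 or more. Ptbp1 against Ptbp2 was among them at 0.06 and Luc7l2 against Luc7l3 at 0.01.

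**Figure D4:**
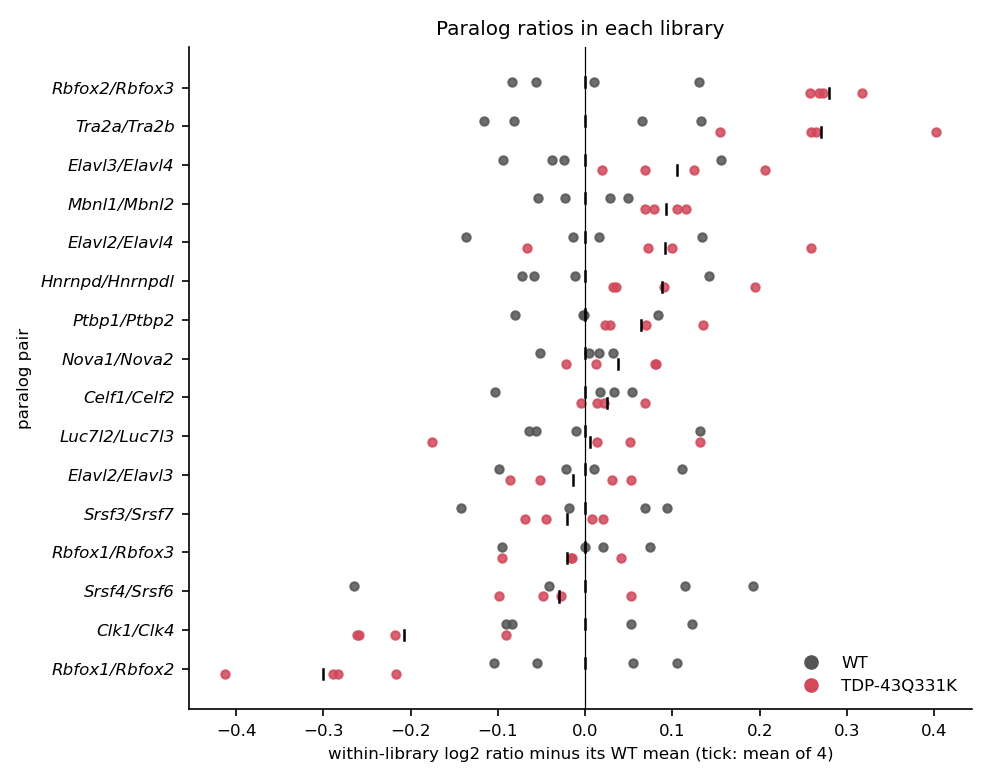
Within-library log2 ratio of the genes of each of the 16 pairs minus the WT mean of that ratio (points, WT and TDP-43Q331K libraries; ticks, group means). The groups are apart for Rbfox1 against Rbfox2, Rbfox2 against Rbfox3, Tra2a against Tra2b and Mbnl1 against Mbnl2, each at the smallest p that 4 against 4 libraries allow (exact p = 0.0286).

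Levels can be compared between genes only per length, and here CPM was divided by the summed length of each gene's annotated exons in kilobases. On that scale Rbfox1 was highest in WT cortex, at 67.4 ± 4.16 CPM per kb, followed by Srsf5 at 63.4 ± 5.08 (SD, n = 4 each). These neighbours lay within the sum of their spreads. Hnrnpk at 52.0 ± 1.92 and Rbfox3 at 50.4 ± 2.90 (SD, n = 4 each) came next and did not differ beyond their spread either. The lowest were Ptbp1 at 4.07 ± 0.179, Srsf4 at 4.73 ± 0.432 and Mbnl1 at 5.37 ± 0.475 CPM per kb (SD, n = 4 each), of which Srsf4 and Mbnl1 did not differ beyond their spread.

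By class the median WT level was 42.0 CPM per kb for hnRNP genes, 22.7 for SR and Tra2 genes, 20.7 for regulators and 17.2 for kinase or Luc7-like genes. Within pairs, Rbfox1 stood at 1.63 times Rbfox2 and 1.34 times Rbfox3 per kb, and Tra2a at 2.04 times Tra2b. Ptbp1 stood at 0.293 times Ptbp2 and Mbnl1 at 0.262 times Mbnl2. These levels rest on the length used. With the longest annotated transcript in place of all exons, Hnrnpk was highest at 113 CPM per kb, ahead of Rbfox1 at 96.9, and Srsf4 was lowest at 5.43.

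**Figure D5:**
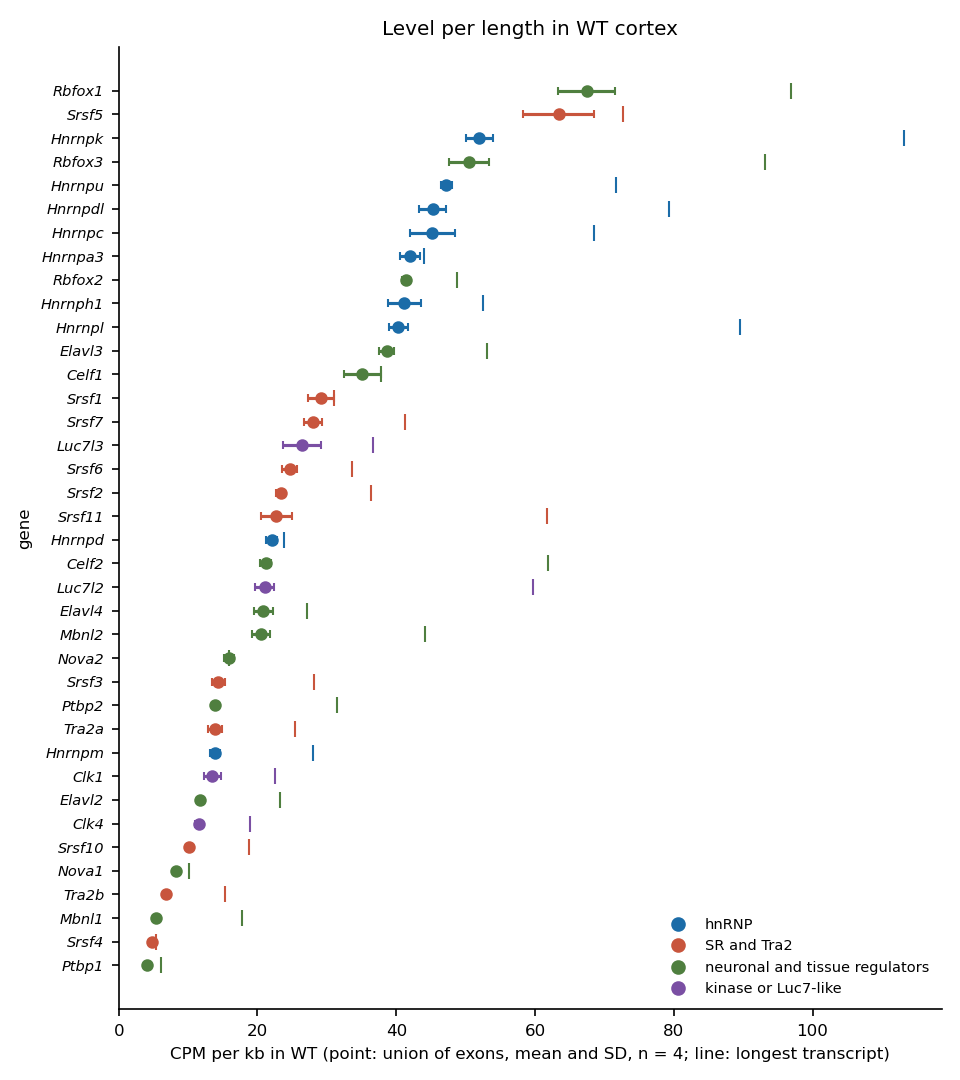
Level of each of the 38 genes in WT cortex in CPM per kilobase, with the union of annotated exons as length (points and bars, mean and SD, n = 4) or the longest transcript (vertical lines), coloured by class. By exon union Rbfox1 is highest at 67.4 and Ptbp1 lowest at 4.07, and by longest transcript Hnrnpk is highest at 113.

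The annotation (GENCODE M21) lists transcripts that end in nonsense-mediated decay for 22 of the 38 genes and transcripts with a retained intron for 30. Among SR and Tra2 genes 10 of 11 have a decay transcript, with Srsf10 the exception, and all 4 kinase or Luc7-like genes do. Of the hnRNP genes 5 of 9 have one and of the regulators 3 of 14, Ptbp1, Ptbp2 and Celf2. Among all 13833 protein-coding genes measured, 27.8% have a decay transcript and 57.3% one with a retained intron. Hnrnpm has 0 decay transcripts and 4 with a retained intron, and Tra2a has 1 and 2. The counts are per gene and do not separate these transcripts from those that make protein.

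UG repeats, the sequence that TDP-43 binds, were searched as TG repeated at least 6 times on the sense strand of protein-coding transcripts. They lay in 3 of the 38 genes (7.89%), Hnrnpd, Luc7l2 and Luc7l3, each in the 3′ UTR, and in 1196 of 13831 genes (8.65%). The run in Luc7l3, on chromosome 11 and at base 3279 of transcript Luc7l3-209, is shown because it is the shortest of the 3, at 26 bases, with capitals marking the repeat.
Luc7l3: TGTGTGTGTGTGTGTGTGTGTGTGTG
In Hnrnpd and Luc7l2 the run was 42 bases long. All 3 genes overlapped between groups, and introns, where TDP-43 also binds, were not searched.

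Related genes outside the 38 stand beside the edgeR share of all genes, 0.344% called higher and 0.599% called lower. Of 15 other hnRNP genes 1 rose, Hnrnpul2, a relative of Hnrnpu, at 236 ± 7.47 CPM in WT and 287 ± 12.8 CPM in the mutant (SD, n = 4 each). Its log2 fold change was 0.28 (SE 0.05, edgeR adjusted p = 0.0212), and it was called in 2 of the 8 leave-one-out fits. The list had 9 of 15 positive values and a median log2 fold change of 0.04. Next by p came Hnrnph3, at a log2 fold change of 0.23 (edgeR adjusted p = 0.195), and Syncrip, at 0.10 (edgeR adjusted p = 0.436).

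Of 24 measured neuronal and tissue regulators outside the 38, 1 rose, Msi2, which encodes an RNA-binding protein of the Musashi family. It was at 146 ± 6.80 CPM in WT and 171 ± 2.93 CPM in the mutant (SD, n = 4 each), at a log2 fold change of 0.23 (edgeR adjusted p = 0.0443), and it was called in 1 of the 8 leave-one-out fits. The list had 16 positive values and a median of 0.05. Celf4 was lower, without overlap, at a log2 fold change of -0.16 (adjusted p = 0.173 in edgeR and 0.0461 in DESeq2), and Qk stood at 0.12 (edgeR adjusted p = 0.286).

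The remaining lists had 0 called genes by edgeR. Of 16 SR-related genes 11 were positive with a median of 0.03, and the genes with the smallest p-values were Acin1, Son and Pnn, at log2 fold changes of 0.15, 0.09 and 0.08 (edgeR adjusted p = 0.24, 0.38 and 0.548). Of 8 further SR protein kinases and Luc7-like genes 7 were positive with a median of 0.08. In order of p, Dyrk1a, Srpk1 and Clk3 had log2 fold changes of 0.12, 0.18 and 0.10 (edgeR adjusted p = 0.143, 0.196 and 0.383). Of 37 measured core spliceosome genes 23 were positive with a median of 0.01. Snrnp70, which encodes a protein of the U1 particle, came nearest to the threshold there, at 356 ± 26.8 CPM in WT and 446 ± 34.8 CPM in the mutant (SD, n = 4 each; log2 fold change 0.32, edgeR adjusted p = 0.0652). Sf3b1 followed at 0.15 (edgeR adjusted p = 0.155) and Prpf6 at 0.13 (edgeR adjusted p = 0.182). DESeq2 called 0 of the 16 SR-related genes and 0 of the 8 kinase or Luc7-like genes. Of the 37 spliceosome genes it called 2, Snrnp70 and Sf3b1, against 4.47% of all genes. Unadjusted edgeR p-values under 0.05 were found for 1 SR-related gene and 2 kinase or Luc7-like genes, all higher. Among spliceosome genes 6 were higher and 1 lower at that level, against 7.91% and 7.77% of all genes.

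Tardbp itself was at 171, 198, 193 and 176 CPM in WT and at 162, 141, 167 and 149 CPM in the mutant. The groups did not overlap, and the log2 fold change was -0.25 (SE 0.07, edgeR adjusted p = 0.106). A gene-level count cannot tell the mutant transcript from the normal one. Total counts per library ran from 45253021 to 58115164. Xist, expressed from the inactive X chromosome, was high in WT replicates 2 and 3 and in mutant replicates 1 and 2. There Ddx3y, a Y chromosome gene, was at most 0.0573 CPM, and in the remaining libraries it was at 64.9 to 71.5 CPM. Each group thus held both sexes. With Xist as a covariate Hnrnpm was again the only member called.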

How the data were processed

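Oligo(dT)-captured RNA of 8 cortex samples was sequenced with a stranded ligation kit, per the labels' protocols. The authors deposited raw counts per gene and, in a further table, a normalised signal for the same genes. Within each column of that table the signal is the count divided by one TMM-scaled library size, as the file headers and the values show. STAR 2.7.6a, edgeR 4.4.2, R 4.3.1 and GRCm39 appear in the submitters' processing notes without their roles. Which program counted reads, with what strand setting and annotation, is unknown here, so that overlapping genes and close copies may share reads. Exons of 7 of the 38 genes overlap those of another counted gene. A copy of at least 90% identity over at least 300 bases exists for 17, and for 4 of these the copy is counted.

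GENCODE M21 (build GRCm38) gave symbols for 15470 of 15693 identifiers, exon lengths and transcript types. The members and lists were chosen with earlier results of these data known. Counts were fitted with edgeR 4.0.16 in R 4.3.3, by TMM, filterByExpr (0 genes removed), genotype alone and the quasi-likelihood F-test, with 6 degrees of freedom left for the residuals. The standard error is the log2 fold change over the square root of F, and the common biological coefficient of variation was 11.2%. Values of every library are printed for members past the test and for up to 6 per class with the smallest p, and other lists are represented by called genes or the 3 with the smallest p. Paralog ratios were tested with SciPy 1.17.1 over all 70 arrangements, and copies were searched with BLAST 2.17.0. Alternatives comprised 3 other scalings (RLE, upper quartile, library size), 2 other filters (none, or CPM over 1 in 4 libraries) and DESeq2 1.42.0. They further comprised limma 3.58.1 (voom, and trend on log2 of the deposited signal plus 1), a replicate block, covariates of Xist or of thalamic and olfactory markers, a threshold of 0.10, and leaving out each library.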

Additional observations from a re-analysis of the deposited data

Results flagged for a closer look

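Dixon's test was applied to each gene in each group of 4 libraries, 76 groups in all, and 3 had a library that stood apart from the others, where chance gives about 1 in 20. Srsf5, an SR protein gene, was at 241 CPM in TDP-43Q331K replicate 2, whereas the other mutant libraries lay between 273 and 277 CPM. Luc7l2 was at 217 CPM in the same library, whereas the others lay between 281 and 292 CPM. Nova1 was at 69.1 CPM in WT replicate 3, with the other WT libraries between 73.6 and 74.2 CPM. None of these 3 genes passed the all-gene edgeR test with or without the library that stood apart.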

How the results depend on the processing

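The 38 genes held 1 call, Hnrnpm, under RLE, upper quartile, no filter, the CPM filter, limma-voom, the Xist covariate and each of the 8 fits without 1 library. They held 2 (Hnrnpm and Tra2a) with library size only, with limma-trend and at a threshold of 0.10, and 3 (also Rbfox1) with DESeq2. With the replicate number as a block and with the marker covariate they held 0, and the edgeR adjusted p of Hnrnpm was 0.0664 and 0.0665. Genes called in all numbered 701 with DESeq2, 14 with the block, 12 with the marker covariate, 396 at 0.10 and between 51 and 129 without 1 library. Deviations from the group means had correlations of -0.44, 0.08, -0.11 and 0.06 between same-numbered WT and mutant libraries. Between differently numbered libraries they ran from -0.48 to 0.53. With 4 libraries per group these values cannot decide if the numbers pair the samples, and the labels do not say. By Xist, the WT and mutant libraries numbered 1 differ in sex, as do those numbered 3. The median of the hnRNP class was 0.017 with the marker covariate, 0.027 with upper quartile, 0.025 without WT replicate 1, and 0.024 and 0.029 without TDP-43Q331K replicates 1 and 3. The median of the SR and Tra2 class was 0.13 with the marker covariate, and that of the kinase or Luc7-like class ran from -0.063 (without TDP-43Q331K replicate 3) to 0.037 (without TDP-43Q331K replicate 2) when 1 library was left out. The counts of positive markers without 1 library were added after seeing the data. With the longest transcript as length, 37 of 38 levels per kb moved by more than the WT spread.

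Signs turned only for values near 0, and the cause was not tested. Hnrnpk was -0.00069 with RLE, -0.00064 with DESeq2, -0.012 with upper quartile and -0.015 with the marker covariate. Upper quartile scaling gave -0.0072 for Srsf11, -0.00052 for Celf1, -0.010 for Nova1 and -0.011 for Elavl3, and library size only gave 0.010 for Celf2 and 0.0070 for Elavl2. The marker covariate gave -0.013 for Hnrnpa3, -0.019 for Srsf4, 0.010 for Ptbp1, 0.00091 for Celf2 and 0.0071 for Nova2. Without 1 library, log2 fold changes ran from -0.018 to 0.020 for Hnrnpk, -0.028 to 0.072 for Srsf4, -0.034 to 0.068 for Srsf11, -0.038 to 0.010 for Ptbp1 and -0.032 to 0.054 for Celf1. They ran from -0.052 to 0.037 for Celf2, -0.023 to 0.038 for Nova1, -0.0077 to 0.066 for Mbnl2, -0.028 to 0.0094 for Elavl2 and -0.030 to 0.026 for Elavl3. Differences of paralog ratios ran from -0.053 to 0.0036 for Rbfox1/Rbfox3, -0.010 to 0.042 for Celf1/Celf2 and -0.046 to 0.023 for Elavl2/Elavl3. They ran from -0.037 to 0.065 for Luc7l2/Luc7l3, -0.119 to 0.034 for Srsf4/Srsf6 and -0.069 to 0.010 for Srsf3/Srsf7.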
